A study of Mus musculus with 16 samples.

Results

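The genes described here are 51 genes of skeletal muscle, taken by symbol. They encode the contractile filaments, the calcium machinery that switches contraction on and off, and the enzymes that fuel it. All 51 were on the array, each with 1 transcript cluster (the array's unit for a gene), among 30943 genes with a symbol and 41345 clusters in all. RNA of whole ear flaps from C57BL/6J wild-type (WT) mice and from miR-146a-/- mice (KO, labelled B6/Mir-146a-/- on the same background), aged 8 to 11 weeks, was hybridised to 16 arrays. In each genotype 4 samples had received a vehicle control and 4 had received imiquimod (IMQ), a Toll-like receptor agonist used to provoke psoriasis-like inflammation. The cream held 5% IMQ and was put on the right ear at 31.25 mg a day, 3 days running, with tissue collected on day 4. The labels do not say that the 4 samples of a group came from separate mice, so each p-value reflects only how these samples vary, and that variation may be technical.

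The microRNA deleted in the knockout mice is shown because the genotype comparison turns on it. RefSeq places its mature 5p arm on the minus strand of GRCm38.p6 at chr11:43374435-43374456, and the seed, bases 2 to 8, is in capitals.
mmu-miR-146a-5p: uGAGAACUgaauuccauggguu
The miR-146a gene (symbol Mir146) read 1.62 to 2.16 on the log2 scale in the 8 wild-type arrays and 1.73 to 1.93 in the 8 knockout arrays. All of these lay below the array medians of 3.21 to 3.28, so this cluster does not check the genotype labels.

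Skeletal muscle contracts when myosin heads of the thick filament pull on actin of the thin filament within the sarcomere, the repeating unit bounded by Z-discs. A nerve signal opens the sarcoplasmic reticulum through the dihydropyridine and ryanodine receptors, and the released calcium binds troponin C and frees actin for myosin. Fast and slow fibres use different isoforms of myosin, troponin and calcium pump, and in the mouse ear the striated fibres belong to thin auricular muscles that move the ear.

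The deposited values are log2 expression per cluster, and they ran from 1.25 to 13.29. The correlation between arrays of a group was 0.960 to 0.976, and knockout vehicle array 3 had the lowest mean correlation with its group. Other markers fixed for skeletal muscle were present: in wild-type vehicle ears desmin (Des) read 7.66 to 8.35, β-tropomyosin (Tpm2) 7.98 to 8.60 and the muscle sodium channel Scn4a 4.13 to 5.06. The acetylcholine receptor subunit Chrna1 lay nearer the array medians, at 3.50 to 3.92, and the myogenic factor Myod1 at them, at 2.88 to 3.47. Of the cardiac markers, the α-myosin heavy chain Myh6 read 2.28 to 3.22 over all 16 arrays and the atrial light chain Myl7 read 2.61 to 2.99. The other fixed cardiac markers lay above the array medians, Nppa at 3.26 to 4.17 and Tnni3 at 3.45 to 4.58. Among the muscle genes themselves, perinatal Myh8 fell below the array median on 13 arrays, slow Myh7 on 2 and the calcium channel subunit Cacng1 on 1. On chromosome 11, 5 neighbouring myosin heavy chain genes (Myh1, Myh2, Myh3, Myh4 and Myh8) are close copies, so their probes may share signal and their separate values are uncertain.

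The 51 genes moved largely together from array to array. Each gene was centred on its own mean over the 16 arrays, and the median over the 51 was taken for each array. This median was 0.78, 1.01, 0.06 and 0.92 in knockout vehicle arrays 1 to 4, and -0.52, -0.19, -0.86 and -0.52 in knockout IMQ arrays 1 to 4. It was -0.15, 0.27, -0.55 and 0.02 with vehicle in wild-type ears, and -0.50, 0.12, 0.12 and 0.07 with IMQ. All 4 knockout vehicle arrays lay above all 4 knockout IMQ arrays, the wild-type IMQ arrays lay within the range of the wild-type vehicle arrays, and knockout vehicle array 3 lay within the wild-type vehicle range. Knockout vehicle ears had the highest group mean for 48 of the 51 genes, and knockout IMQ ears the lowest for 41. In whole-tissue RNA, fewer muscle fibres in a sample and less of these transcripts per fibre cannot be told apart.

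**Figure D1:**
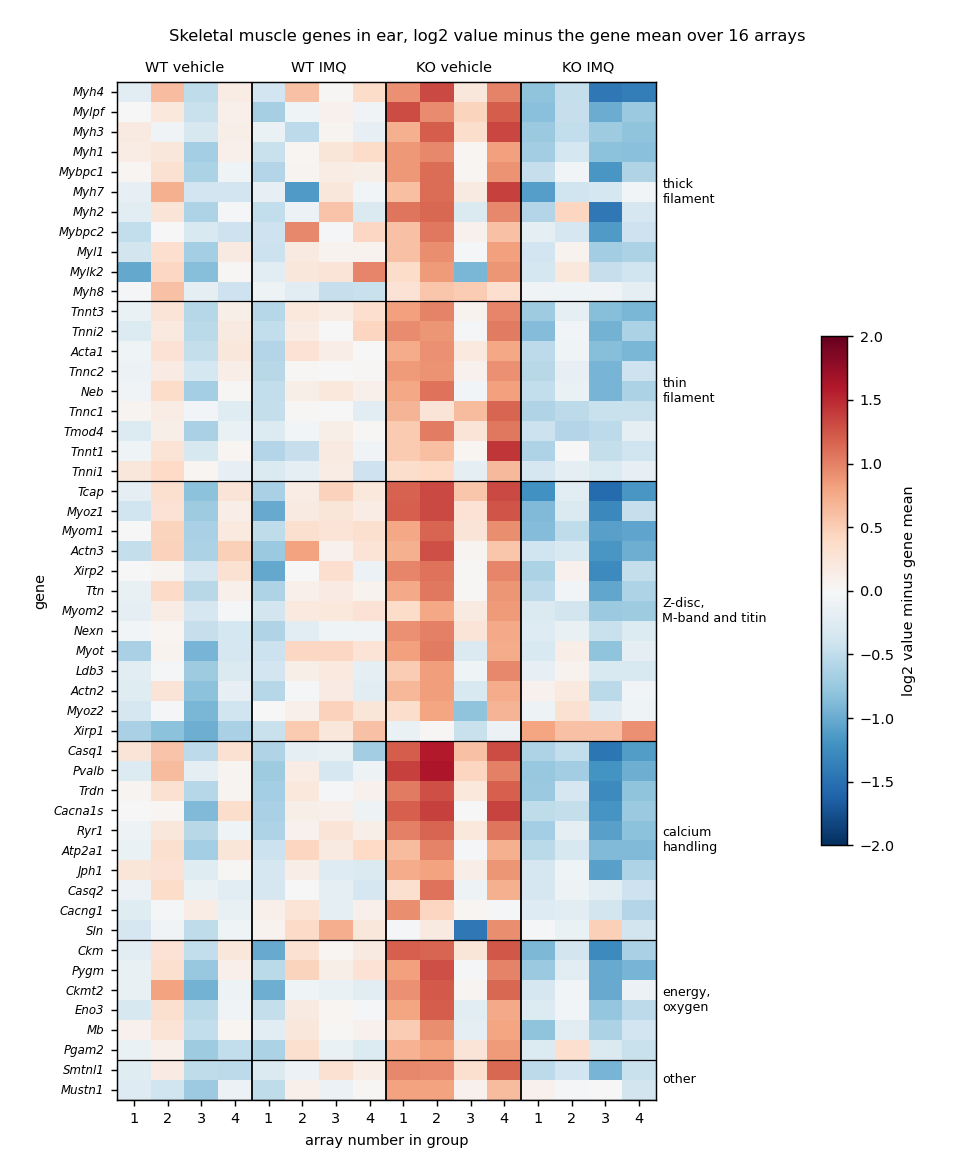
Log2 expression of the 51 genes (rows, grouped by role), each centred on its mean over 16 arrays, in the 4 arrays of each group (columns). Colour gives the centred value, and knockout vehicle arrays 1, 2 and 4 are the highest for most genes, while knockout IMQ ears have the lowest group mean for 41 of the 51.

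Single arrays also stood apart for most of the genes at once. Knockout vehicle array 3 was the lowest of its group for 48 of 51 genes, against 23.4% of all genes on the array. Wild-type IMQ array 1 was lowest in its group for 44, wild-type vehicle array 3 for 42 and knockout IMQ array 3 for 32. The shares of all genes on these arrays were 23.6%, 25.0% and 24.3%. At the other end, wild-type vehicle array 2 was highest in its group for 44 genes and knockout IMQ array 2 for 41. Knockout vehicle array 2 was highest in its group for 31. For these counts the share over all genes was not taken. How much muscle each ear sample held was not recorded in the labels, and its part in these results was not tested.

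In knockout ears, IMQ lowered nearly the whole contractile set. A fit over all 16 arrays with limma, with Benjamini-Hochberg adjustment over all 30943 genes and calls at adjusted p under 0.05, called 46 of the 51 genes lower and 1 higher. Over all genes tested 6.91% were called lower and 8.07% higher in this comparison. The median difference was -1.21 on the log2 scale over the 51 genes and -0.02 over all genes. For 36 of the 51 the 4 IMQ arrays all lay below the 4 vehicle arrays, which held for 7.43% of all genes, and for Xirp1 they all lay above, which held for 8.55%.

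Thick filament genes were lowered in 10 of 11 cases, with a median difference of -1.29. Myh4 encodes the heavy chain of the fastest fibres (type IIb). Wild-type ears gave Myh4 readings of 9.50, 10.33, 9.21 and 9.86 with vehicle and 9.33, 10.30, 9.73 and 10.08 with IMQ. Knockout ears gave Myh4 readings of 10.63, 11.03, 9.94 and 10.70 with vehicle and 8.91, 9.23, 8.29 and 8.33 with IMQ. All 4 knockout IMQ arrays lay below the knockout vehicle and wild-type IMQ arrays, the highest of them just above the lowest wild-type vehicle array. Myh4 was 3.69-fold lower with IMQ in knockout ears (log2 difference -1.89 ± 0.28 SE, limma adjusted p = 9.13e-05).

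Mylpf, the fast regulatory light chain, was likewise highest on average in knockout vehicle ears and lowest in knockout IMQ ears. Wild-type ears gave Mylpf readings of 8.20, 8.40, 7.74 and 8.29 with vehicle and 7.53, 8.11, 8.27 and 8.12 with IMQ. Knockout ears gave Mylpf readings of 9.49, 9.13, 8.64 and 9.40 with vehicle and 7.36, 7.73, 7.20 and 7.45 with IMQ. Every knockout vehicle array lay above every wild-type array, and the IMQ difference in knockout ears was -1.73 ± 0.20 SE (3.32-fold lower, limma adjusted p = 7.82e-06). The embryonic heavy chain Myh3, which is used before birth and in regenerating fibres, was lower by 3.02-fold (-1.59 on the log2 scale, limma adjusted p = 9.94e-06). Myh1 and Myh2, heavy chains of the other fast fibre types, were 2.55-fold and 2.31-fold lower, and the slow chain Myh7 was 2.45-fold lower. The myosin-binding proteins Mybpc1 and Mybpc2, which tie the thick filament together, differed by -1.29 and -1.09 on the log2 scale. Mylk2, the kinase of the fast regulatory light chain, was the exception in this group at -0.55 (limma adjusted p = 0.401, 95% interval -1.31 to 0.22).

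Sequence upstream of the start is shown for the Myh4 and Mylpf genes because they lead the thick filament group and their values moved together. RefSeq's GRCm38.p6 table held a window for 36 of the 51 genes. Capitals mark 5 elements searched on both strands in the 250 bases before the start: the E-box CAGCTG, a MEF2 site, a CArG box, the M-CAT element CATTCC and TATAAA. These are letters to which, in general, the MyoD family, MEF2 factors, serum response factor, TEAD factors and the TATA-binding protein can bind. The Myh4 window (chr11:67237562-67237811, plus strand) held all 5, and the Mylpf window (chr7:127211358-127211607, plus strand) held an E-box 51 to 46 bases before the start.
Myh4: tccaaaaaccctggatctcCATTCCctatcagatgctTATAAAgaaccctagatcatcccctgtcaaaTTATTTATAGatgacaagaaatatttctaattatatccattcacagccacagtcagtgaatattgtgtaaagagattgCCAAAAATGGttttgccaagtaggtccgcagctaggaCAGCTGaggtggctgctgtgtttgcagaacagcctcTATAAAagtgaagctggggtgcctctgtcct
Mylpf: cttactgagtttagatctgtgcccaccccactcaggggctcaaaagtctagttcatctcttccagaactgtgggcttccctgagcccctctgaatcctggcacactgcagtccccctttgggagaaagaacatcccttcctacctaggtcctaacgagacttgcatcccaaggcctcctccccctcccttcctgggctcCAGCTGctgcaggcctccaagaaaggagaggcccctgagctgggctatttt
In Myh4 the M-CAT element lay 231 to 226 bases before the start, the MEF2 site 182 to 173 (minus strand, overlapping a TATAAA match at 179 to 174), the CArG box 104 to 95, the E-box 67 to 62 and the nearest TATAAA 31 to 26. Over the 36 genes with a window, 15 (41.7%) held CAGCTG against 14.7% of 27025 genes, 9 (25.0%) a MEF2 site against 1.99% and 4 (11.1%) a CArG box against 1.62%. CATTCC was present in 9 (25.0%, against 14.4%) and TATAAA in 7 (19.4%, against 14.3%). A match is a description of the letters and not a binding site.

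All 9 thin filament genes were lowered by IMQ in knockout ears, with a median difference of -1.20. Tnnt3 is the fast troponin T, which anchors the troponin complex to tropomyosin. Wild-type ears gave Tnnt3 readings of 9.37, 9.77, 8.94 and 9.63 with vehicle and 8.94, 9.72, 9.66 and 9.85 with IMQ. Knockout ears gave Tnnt3 readings of 10.33, 10.50, 9.58 and 10.49 with vehicle and 8.79, 9.32, 8.65 and 8.60 with IMQ. The knockout groups did not overlap, although vehicle array 3 came close to the highest IMQ array, and the difference was 2.61-fold (limma adjusted p = 0.000429).

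Tnni2 is the fast inhibitory troponin. Wild-type ears gave Tnni2 readings of 6.84, 7.31, 6.58 and 7.30 with vehicle and 6.63, 7.27, 7.13 and 7.55 with IMQ. Knockout ears gave Tnni2 readings of 8.06, 8.00, 7.10 and 8.16 with vehicle and 6.25, 7.06, 6.17 and 6.48 with IMQ. Here vehicle array 3 and IMQ array 2 of the knockout almost met, and the difference was 2.53-fold (limma adjusted p = 0.000959). The skeletal actin Acta1 was 2.38-fold lower, nebulin (Neb), the ruler of thin filament length, 2.30-fold lower, and Tmod4, which caps the filament's pointed end, 2.21-fold lower. The calcium sensors Tnnc1 (slow) and Tnnc2 (fast) were 2.28-fold and 2.30-fold lower, and the slow Tnni1 had the smallest change of the group, 1.46-fold lower (limma adjusted p = 0.0293).

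At the Z-disc, the M-band and along titin, 10 of 13 genes were lowered, 1 was raised and 2 were not called. Tcap (telethonin) clamps the ends of titin at the Z-disc and had the largest difference of the 51 genes. Wild-type ears gave Tcap readings of 7.32, 7.83, 6.70 and 7.77 with vehicle and 6.87, 7.66, 7.97 and 7.72 with IMQ. Knockout ears gave Tcap readings of 8.70, 8.83, 8.07 and 8.84 with vehicle and 6.30, 7.30, 5.98 and 6.35 with IMQ. Every knockout vehicle array was above every wild-type array, and Tcap was 4.37-fold lower with IMQ in knockout ears (-2.13 ± 0.29 SE, limma adjusted p = 5.22e-05).

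Myoz1 binds calcineurin and α-actinin at the Z-disc of fast fibres. Wild-type ears gave Myoz1 readings of 4.90, 5.58, 4.59 and 5.42 with vehicle and 4.29, 5.48, 5.53 and 5.44 with IMQ. Knockout ears gave Myoz1 readings of 6.49, 6.61, 5.59 and 6.55 with vehicle and 4.41, 5.00, 4.00 and 4.83 with IMQ. The knockout groups did not overlap, and the difference was 3.36-fold (limma adjusted p = 0.000418). The M-band proteins Myom1 and Myom2, which crosslink thick filaments, were 3.16-fold and 2.10-fold lower, titin (Ttn) was 2.36-fold lower and the fast α-actinin Actn3 was 2.58-fold lower. The actinin used by all fibre types, Actn2, read 7.95 to 8.68 with IMQ and 8.18 to 9.33 with vehicle in knockout ears, and its difference of -0.56 did not pass (limma adjusted p = 0.167, 95% interval -1.09 to -0.03). Myoz2, the slow-fibre counterpart of Myoz1, differed by -0.29 (limma adjusted p = 0.584, 95% interval -0.84 to 0.27).

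**Figure D2:**
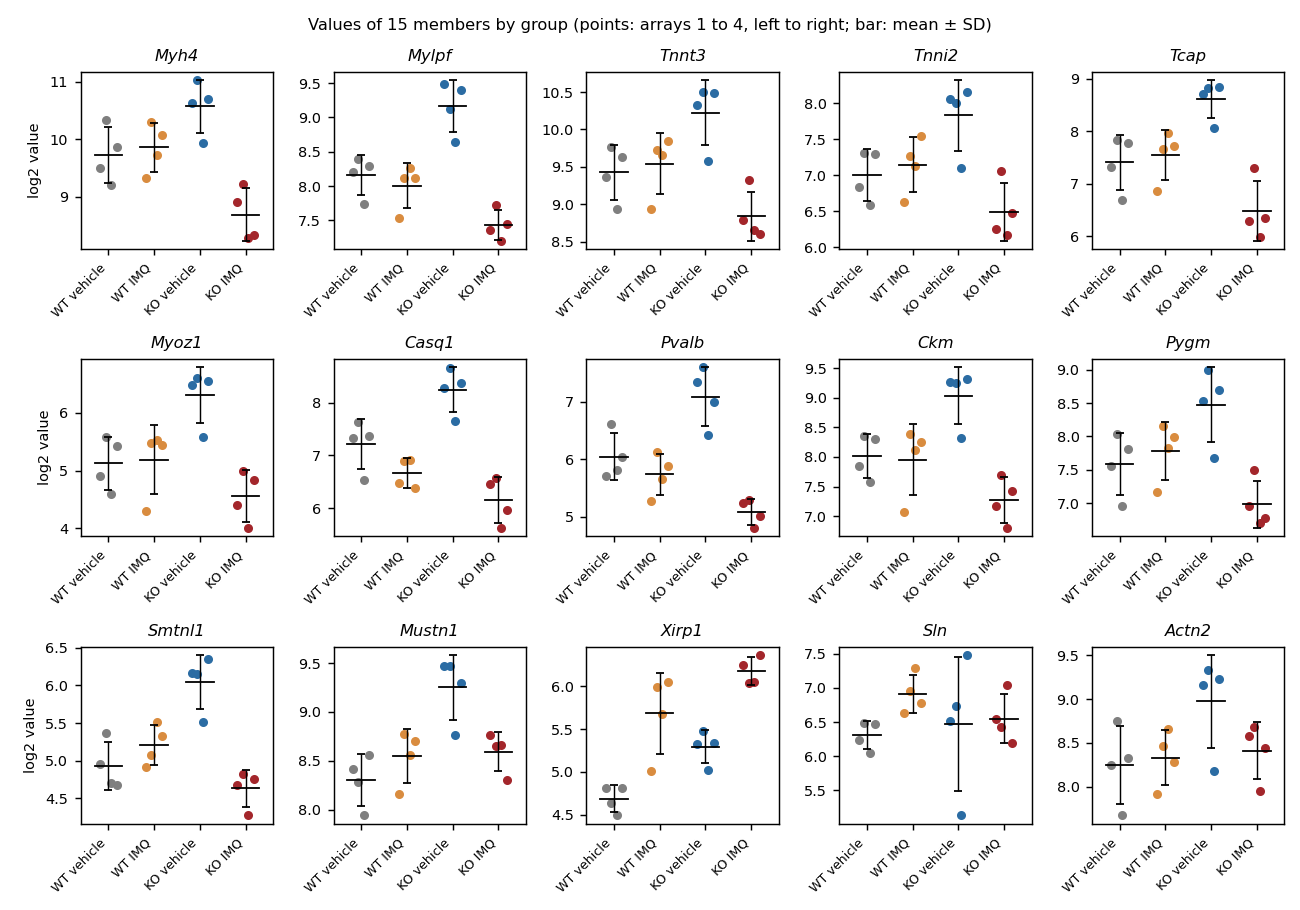
Log2 expression in each of the 16 arrays (points) with mean and SD (bars, 4 arrays per group), for 15 genes over all roles. Myh4, Mylpf, Tcap, Casq1 and Pvalb have their highest group mean in knockout vehicle ears and their lowest in knockout IMQ ears, while Xirp1 is higher with IMQ in both genotypes.

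Xirp1 was the only one of the 51 genes raised by IMQ, and it was raised in both genotypes. Xirp1 (Xin) binds actin at sites of sarcomere remodelling and is known to appear in injured and regenerating muscle fibres. Wild-type ears gave Xirp1 readings of 4.81, 4.64, 4.49 and 4.81 with vehicle and 5.01, 5.99, 5.68 and 6.05 with IMQ. Knockout ears gave Xirp1 readings of 5.33, 5.48, 5.02 and 5.34 with vehicle and 6.25, 6.04, 6.05 and 6.37 with IMQ. The IMQ arrays lay above the vehicle arrays without overlap in each genotype, by 0.99 ± 0.18 SE in wild-type ears (limma adjusted p = 0.00272) and 0.89 ± 0.18 SE in knockout ears (limma adjusted p = 0.002). The difference between these effects was -0.11 with a 95% interval of -0.65 to 0.43 (limma adjusted p = 0.92). Its relative Xirp2 was 2.53-fold lower with IMQ in knockout ears (limma adjusted p = 0.00367).

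Of the calcium handling genes, 9 of 10 were lowered by IMQ in knockout ears, with a median difference of -1.39, the most negative of the role groups. Casq1 is the main calcium store protein of the fast fibre's sarcoplasmic reticulum. Wild-type ears gave Casq1 readings of 7.33, 7.64, 6.54 and 7.37 with vehicle and 6.47, 6.89, 6.92 and 6.38 with IMQ. Knockout ears gave Casq1 readings of 8.28, 8.66, 7.65 and 8.38 with vehicle and 6.45, 6.58, 5.62 and 5.96 with IMQ. The knockout groups stood more than 1 log2 unit apart, and Casq1 was 4.26-fold lower (-2.09 ± 0.25 SE, limma adjusted p = 1.36e-05).

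Pvalb is the soluble calcium buffer that speeds relaxation of fast fibres. Wild-type ears gave Pvalb readings of 5.71, 6.62, 5.81 and 6.04 with vehicle and 5.28, 6.13, 5.65 and 5.88 with IMQ. Knockout ears gave Pvalb readings of 7.35, 7.60, 6.42 and 6.99 with vehicle and 5.23, 5.29, 4.80 and 5.01 with IMQ. The knockout groups again did not overlap, and Pvalb was 4.02-fold lower (-2.01 ± 0.24 SE, limma adjusted p = 1.26e-05). The windows before the Casq1 gene (chr1:172219896-172220145, minus strand) and the Pvalb gene (chr15:78206401-78206650, minus strand) are shown, since these genes lead the calcium group, with the same 5 elements in capitals.
Casq1: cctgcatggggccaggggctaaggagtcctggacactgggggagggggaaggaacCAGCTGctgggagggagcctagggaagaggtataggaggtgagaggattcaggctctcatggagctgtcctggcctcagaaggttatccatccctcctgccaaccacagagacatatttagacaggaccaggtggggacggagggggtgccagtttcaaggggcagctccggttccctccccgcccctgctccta
Pvalb: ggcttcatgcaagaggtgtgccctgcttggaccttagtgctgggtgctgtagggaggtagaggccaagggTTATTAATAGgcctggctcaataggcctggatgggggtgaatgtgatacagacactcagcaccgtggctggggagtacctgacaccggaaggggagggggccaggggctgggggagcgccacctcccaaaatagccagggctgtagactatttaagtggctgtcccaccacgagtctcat
Casq1 held 1 E-box, 195 to 190 bases before the start, and Pvalb held 1 MEF2 site, 180 to 171 bases before it on the minus strand.

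Transcripts for proteins that couple the surface membrane to the calcium store fell as well. Cacna1s is the voltage sensor of the transverse tubule. Wild-type ears gave Cacna1s readings of 5.85, 5.89, 4.96 and 6.19 with vehicle and 5.20, 5.97, 5.94 and 5.74 with IMQ. Knockout ears gave Cacna1s readings of 7.04, 7.21, 5.85 and 7.20 with vehicle and 5.33, 5.37, 4.67 and 5.11 with IMQ. Knockout vehicle array 3 sat more than 1 log2 unit below the other 3 of its group and still above the IMQ arrays, and the difference was 3.26-fold (limma adjusted p = 0.000407). In wild-type ears the 2 treatments differed by -0.01, with a 95% interval of -0.62 to 0.60. Ryr1, the release channel itself, was 2.94-fold lower in knockout ears with IMQ, and triadin (Trdn), which links it to calsequestrin, 3.30-fold lower. The fast calcium pump Atp2a1, which refills the store, was 2.35-fold lower, and junctophilin 1 (Jph1), which holds the junction together, 2.25-fold lower. Casq2 and Cacng1 changed least among those called, at 1.71-fold and 1.62-fold lower.

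Sarcolipin (Sln), a small inhibitor of the calcium pump, did not follow the other calcium genes. Wild-type ears gave Sln readings of 6.23, 6.49, 6.05 and 6.47 with vehicle and 6.63, 6.95, 7.29 and 6.78 with IMQ. Knockout ears gave Sln readings of 6.52, 6.74, 5.13 and 7.49 with vehicle and 6.54, 6.43, 7.04 and 6.19 with IMQ. The 4 knockout vehicle arrays spanned more than the 4 IMQ arrays, and the difference of 0.08 did not pass (limma adjusted p = 0.927, 95% interval -0.61 to 0.77). In wild-type ears its IMQ arrays all lay above its vehicle arrays, with a difference of 0.60 that did not pass either (limma adjusted p = 0.436).

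All 6 energy and oxygen genes were lowered in knockout ears, with a median difference of -1.13. Ckm, the muscle creatine kinase, regenerates ATP at the sarcomere. Wild-type ears gave Ckm readings of 7.85, 8.36, 7.58 and 8.30 with vehicle and 7.07, 8.38, 8.11 and 8.26 with IMQ. Knockout ears gave Ckm readings of 9.27, 9.24, 8.32 and 9.31 with vehicle and 7.18, 7.70, 6.80 and 7.43 with IMQ. The knockout groups did not overlap, and Ckm was 3.38-fold lower (limma adjusted p = 0.000222).

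Pygm breaks down muscle glycogen. Wild-type ears gave Pygm readings of 7.55, 8.03, 6.95 and 7.81 with vehicle and 7.16, 8.15, 7.83 and 7.99 with IMQ. Knockout ears gave Pygm readings of 8.53, 8.99, 7.68 and 8.70 with vehicle and 6.96, 7.49, 6.70 and 6.77 with IMQ. The lowest vehicle array was again array 3, above all IMQ arrays, and the difference was 2.82-fold (limma adjusted p = 0.000891). Myoglobin (Mb), the oxygen store, was 2.03-fold lower, the glycolytic enolase Eno3 2.05-fold lower, and the mitochondrial creatine kinase Ckmt2 2.32-fold lower. The glycolytic mutase Pgam2 was 1.76-fold lower. Knockout ears gave Pgam2 readings of 5.97, 6.07, 5.52 and 6.12 with vehicle and 5.00, 5.60, 4.98 and 4.83 with IMQ, so that 1 IMQ array overlapped the vehicle group.

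Smtnl1 and Mustn1 were the remaining pair. Smtnl1 is a regulator of myosin phosphatase that muscle cells of several types make. Wild-type ears gave Smtnl1 readings of 4.96, 5.37, 4.70 and 4.68 with vehicle and 4.91, 5.08, 5.51 and 5.33 with IMQ. Knockout ears gave Smtnl1 readings of 6.17, 6.15, 5.52 and 6.35 with vehicle and 4.68, 4.82, 4.27 and 4.76 with IMQ. Its knockout vehicle arrays lay above all wild-type arrays, and its IMQ difference in knockout ears was 2.67-fold (-1.42 ± 0.19 SE, limma adjusted p = 4.62e-05). Mustn1 encodes a small nuclear protein of muscle and skeletal tissue. Wild-type ears gave Mustn1 readings of 8.42, 8.28, 7.94 and 8.56 with vehicle and 8.16, 8.77, 8.56 and 8.70 with IMQ. Knockout ears gave Mustn1 readings of 9.47, 9.47, 8.76 and 9.30 with vehicle and 8.76, 8.65, 8.66 and 8.30 with IMQ. Vehicle array 3 and IMQ array 1 of the knockout tied, and the difference was 1.58-fold (limma adjusted p = 0.0152).

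In wild-type ears, IMQ left the contractile genes without a called decrease. Xirp1 alone was called, and it was higher. Over all genes 3.64% were called, 1.95% higher and 1.69% lower. In the same limma fit 4 of the 51 had an unadjusted p under 0.05, beside 4435 of all 30943 genes. The median difference was 0.08 over the 51 genes and -0.02 over all genes, with 31 of the 51 above zero. The median moved from 0.23 without wild-type IMQ array 1 to -0.11 without wild-type vehicle array 3 and was also below zero, at -0.01, without wild-type IMQ array 2, so its direction rests on single arrays. For 3 genes, Xirp1, Sln and Myoz2, the IMQ arrays all lay above the vehicle arrays, which held for 5.52% of all genes, and for 0 genes they all lay below, against 5.17%. Casq1 had the most negative difference, -0.56, which did not pass (limma adjusted p = 0.31, 95% interval -1.08 to -0.03).

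**Figure D3:**
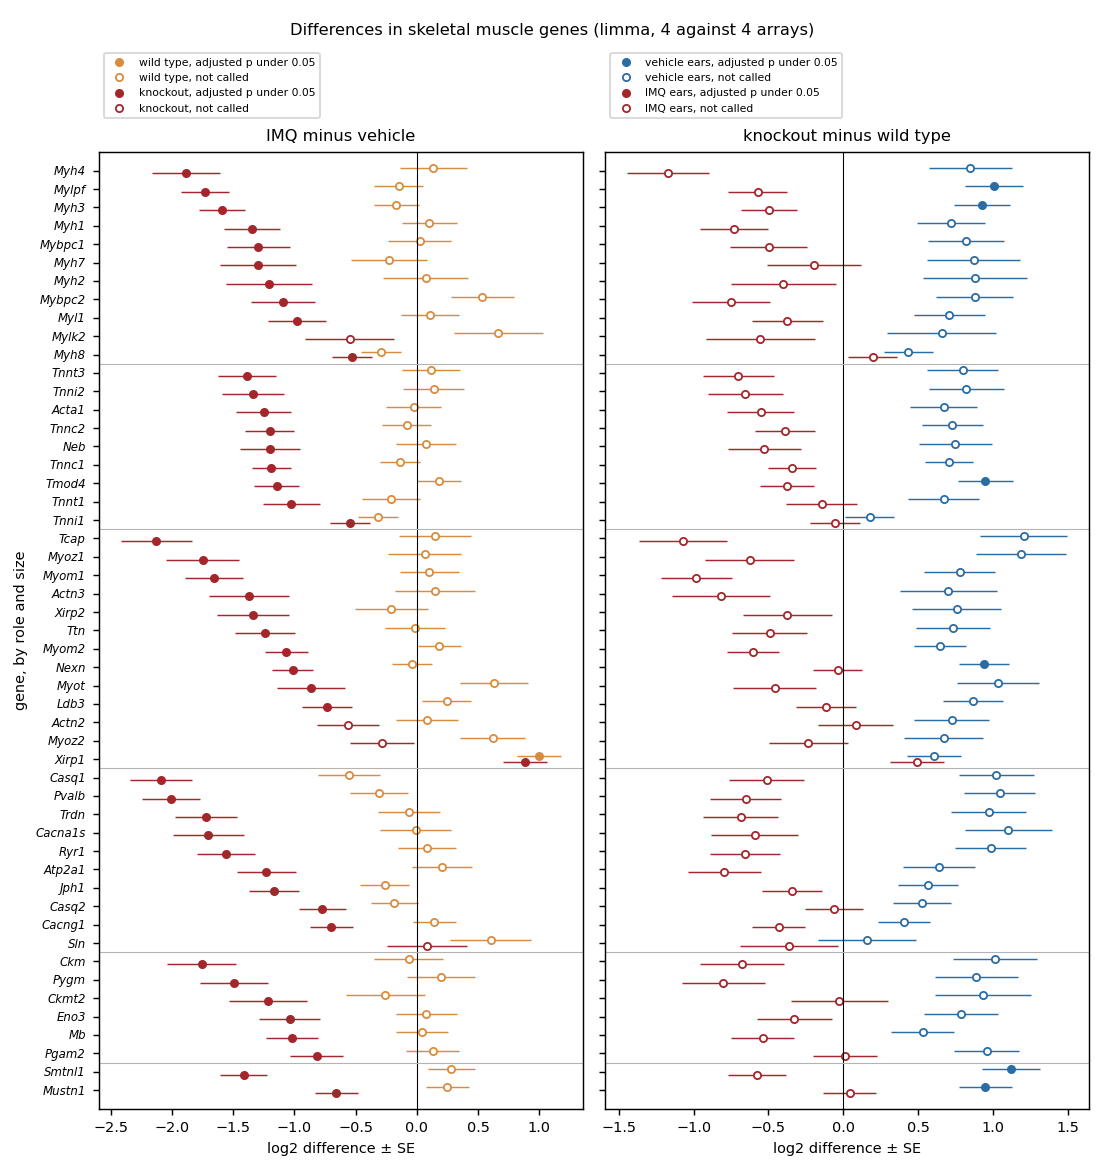
Log2 differences with their SE (bars) for the 51 genes in order of role and size; filled points passed limma's adjusted p of 0.05. At left, IMQ minus vehicle lies below zero for knockout ears in most genes and around zero for wild-type ears; at right, knockout minus wild type is positive for all 51 in vehicle ears and negative for 46 in IMQ ears.

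Without IMQ, knockout ears read higher than wild-type ears for all 51 genes, and 6 of them passed the test. Over all genes 0.107% were called higher in this comparison and 0.349% lower, which is 33 and 108 genes, or 55 and 103 after quantile normalization of the arrays. The median difference was 0.80 over the 51 genes and 0.005 over all genes, and for 14 of the 51 the knockout arrays all lay above the wild-type arrays, against 2.42% of all genes. No gene of the 51 had the opposite order, which 3.57% of all genes had. The 6 called were Smtnl1 (1.12 ± 0.19 SE), Mylpf (1.01 ± 0.20 SE), Tmod4 (0.95 ± 0.18 SE), Mustn1 (0.95 ± 0.18 SE), the actin-binding Z-disc protein Nexn (0.94 ± 0.16 SE) and Myh3 (0.93 ± 0.19 SE). Their limma adjusted p-values ran from 0.0135 for Smtnl1 to 0.0302 for Myh3. Nexn illustrates the separation, with 6.22, 6.32, 5.81 and 5.92 in wild-type vehicle ears and 7.19, 7.28, 6.53 and 7.03 in knockout vehicle ears. Tcap had the largest difference, 1.21 (2.31-fold, 95% interval 0.59 to 1.82), and did not pass (limma adjusted p = 0.0734), and Sln had the smallest, 0.16 (95% interval -0.53 to 0.85).

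The count of 6 depended on single arrays. It was 31 without knockout vehicle array 3, and 0 without knockout vehicle array 4 or without wild-type vehicle array 3. Without wild-type vehicle array 1, or without knockout vehicle array 2, 2 genes were called. None of the 6 was called in every setting tried, while the median difference stayed between 0.65 and 1.05 whichever array was left out. Smtnl1 was called in 14 of 16 fits that left out 1 array, the most of the 6.

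With IMQ, none of the 51 genes passed between knockout and wild-type ears by limma, although 24 had an unadjusted p under 0.05. Of all 30943 genes, 2551 had such a p. Over all genes 0.0194% were called higher and 0.100% lower. The median difference was -0.50 over the 51 genes and 0.01 over all genes, and 46 of the 51 read lower in the knockout. Myh4 had the largest difference, -1.17 ± 0.28 SE (limma adjusted p = 0.125, 95% interval -1.75 to -0.59), with knockout arrays at 8.29 to 9.23 and wild-type arrays at 9.33 to 10.30. Groups that did not overlap were found for Myh4, Myom1, Smtnl1 and Cacng1, 4 of the 51, against 2.77% of all genes that were lower in this way. The opposite order was seen in 2.26% of all genes and in 0 of the 51. Pgam2 differed least, by 0.01 (95% interval -0.44 to 0.46), with 4.63, 5.59, 5.14 and 5.00 in wild-type IMQ ears.

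The IMQ effect itself was more negative in knockout than in wild-type ears for all 51 genes, and the test of that difference called 23 of them. Over all genes 0.721% were called in that direction and 0.530% in the other. The median difference between the effects was -1.25 over the 51 genes and 0.01 over all genes. It was -2.28 ± 0.41 SE for Tcap (limma adjusted p = 0.0128), -2.02 ± 0.39 SE for Myh4 (limma adjusted p = 0.017) and -1.70 ± 0.27 SE for Smtnl1 (limma adjusted p = 0.00752). By role, 6 of 10 calcium genes were called, 5 of 11 thick filament genes, 4 of 9 thin filament genes, 5 of 13 Z-disc and M-band genes, 2 of 6 energy genes and 1 of the remaining 2. The knockout vehicle arrays enter this comparison, the IMQ comparison in knockout ears and the genotype comparison in vehicle ears, so the 3 sets of values share samples.

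For 7 genes, Tcap, Myh4, Myh3, Mylpf, Myom1, Tmod4 and Smtnl1, the difference between effects was called in each of the 24 other settings tried. The count of 23 depended on single arrays. It was 36 without knockout vehicle array 3. It was 8 to 12 without wild-type vehicle array 1 or 3, without wild-type IMQ array 2, 3 or 4, without knockout vehicle array 1, 2 or 4, or without knockout IMQ array 1, 3 or 4. In the IMQ comparison within knockout ears the count was steadier, with 41 to 49 genes called when any array was left out and 40 of the 47 called in every setting. Of the other 7, Ckmt2 was not called without knockout IMQ array 3, Ldb3 without knockout vehicle array 2 or 4, and Mustn1 without knockout vehicle array 1 or 2 or knockout IMQ array 4. Myh2, Tnni1 and Myot were each lost without knockout vehicle array 1, 2 or 4 and without knockout IMQ array 1 or 3, Myot also without IMQ array 4, and Myh8 without any array of the knockout groups except vehicle array 1.

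Isoforms of fast and of slow fibres were both lowered by IMQ in knockout ears. All 14 fast genes, such as Myh4, Tnnt3, Casq1 and Pvalb, were called lower, with a median difference of -1.36. Of all genes, 6.91% were called lower in that comparison. Among the 7 slow genes, such as Myh7, Tnnt1 and Casq2, 6 were called lower, with a median of -1.03, and Myoz2 was not called. For the difference between the IMQ effects, 10 of 14 fast genes and 1 of 7 slow genes (Tnnc1) were called, with medians of -1.51 and -0.90. Of all genes, 0.721% were called lower by that difference. Fast minus slow was also taken within each array, as the median centred value of the 14 minus that of the 7. It was -0.37 ± 0.24 (SD, n = 4) in knockout IMQ ears, where it was below zero on every array, and 0.19 ± 0.16 in knockout vehicle ears, where it was above zero on every array. Wild-type ears gave -0.01 ± 0.25 with vehicle and 0.04 ± 0.22 with IMQ, with arrays on both sides of zero. The slow genes read nearer the array medians, with group mean levels of 4.84 to 5.75 against 7.06 to 8.54 for the fast genes. Differences in genes of low signal are limited by background, and the part of this in the gap was not tested. These values are a description, and no test was made of the gap between the classes.

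Xirp1 changed place against the other 50 genes in the same way. Its centred value minus their median was -0.67 ± 0.30 (SD, n = 4) in wild-type vehicle ears and 0.27 ± 0.23 in wild-type IMQ ears. In knockout ears it went from -0.86 ± 0.25 with vehicle to 1.25 ± 0.33 with IMQ, and the 2 groups did not overlap in either genotype.

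**Figure D4:**
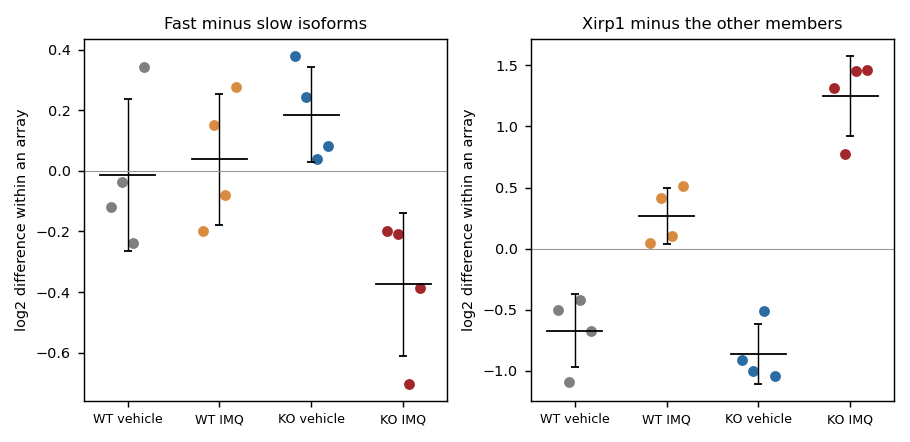
Within-array log2 differences for the 4 arrays of each group (points) with mean and SD (bars): at left, fast minus slow isoforms, below zero on all knockout IMQ arrays; at right, Xirp1 minus the other 50 genes, higher with IMQ in both genotypes.

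Muscle genes outside the 51 were also lowered by IMQ in knockout ears, where 6.91% of all genes were called lower. Of 32 further genes of the sarcomere, the costamere and protein turnover, 20 were called lower and none higher, with a median of -0.75. Lmod3 (leiomodin 3), which nucleates thin filaments, differed by -1.43, Nrap, which acts in myofibril assembly, by -1.28, and Klhl41, a sarcomere-stabilising protein, by -1.25. Excitation and calcium genes were lower in 8 of 13 cases, with the kinase Mylk4 at -2.21, sarcalumenin (Srl) at -1.51 and the store's potassium channel Tmem38a at -1.33. Energy metabolism genes were lower in 10 of 16, with the AMP deaminase Ampd1 at -1.46, muscle phosphofructokinase (Pfkm) at -1.33 and the phosphorylase kinase subunit Phkg1 at -1.20. Of 10 regulators and satellite cell genes 3 were lower, among them myostatin (Mstn), a brake on muscle growth, at -1.82 and Mef2c at -1.18. Of 10 genes of the neuromuscular junction 3 were lower: the agrin receptor Lrp4 at -1.97, and the acetylcholine receptor subunits Chrne at -0.85 and Chrnb1 at -0.67. Lrp4 was also lower with IMQ in wild-type ears (-1.25, limma adjusted p = 2.26e-06), and epithelial cells make it too. None of these genes passed between genotypes in vehicle ears, where only 0.456% of all genes were called. The list medians there were 0.59, 0.44, 0.49, 0.08 and 0.18, in the order above. By the difference between IMQ effects, 4 of 32, 1 of 13, 1 of 16, 0 of 10 and 1 of 10 were called lower. The share of all genes called lower there was 0.721%. The medians of that difference were -0.80, -0.54, -0.82, -0.16 and -0.265, beside -1.25 for the 51.

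Markers of other cells in the ear were read on the same arrays. With IMQ, 6.91% of all genes were called lower and 8.07% higher in knockout ears. In wild-type ears these shares were 1.69% and 1.95%. In knockout ears with IMQ, 9 of 15 cartilage genes were called lower with a median of -0.76, including chondroadherin (Chad) at -1.73, chondromodulin (listed as Lect1) at -1.80 and Comp at -1.38. Their mean level ranged from 5.42 to 5.60 in knockout vehicle and 4.52 to 4.90 in knockout IMQ ears, and in wild-type ears 2 of the 15 were called lower with IMQ, with a median of -0.33. Matn1 stayed near or below the array medians in all groups, at 2.41 to 3.21. Adipocyte genes were called lower in 4 of 16, including Car3 at -1.20 and Plin1 at -0.84, with a list median of -0.31. Of the other fixed adipocyte markers, Adipoq read 4.10 to 5.02 with vehicle and 4.18 to 4.52 with IMQ in knockout ears. Cidec read 5.86 to 7.18 and 5.79 to 6.69 there, so for both genes the groups overlapped. In wild-type ears 2 adipocyte genes were called higher and the median was 0.54. The Schwann and nerve list had 3 of 8 called lower, among them S100b at -1.29, and a median of -0.34, with Sox10 at 2.47 to 3.47 over all arrays. S100b and the collagen-matrix gene Comp are also made outside these cell types.

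Of 10 smooth muscle genes only Smtn was called lower (-0.37), with a list median of -0.32, and the actin Acta2 read 6.62 to 7.72 over the 16 arrays. For IMQ in knockout ears 6.91% of all genes were called lower and 8.07% higher. Counts as small as this do not set a short list apart. Of 9 endothelial genes none was called lower and 2 were called higher, with a median of 0.18. Cardiac markers had 2 of 8 called lower, Actc1 at -1.69 and Tnnt2 at -0.53, and the natriuretic peptide Nppb was called higher at 2.18. None of the fixed cardiac markers Myh6, Myl7, Nppa and Tnni3 was called. Epidermal differentiation genes had 7 of 14 called lower and 4 higher, led by Alox12e at -3.93, and fibroblast genes 3 of 10 lower and 1 higher. In vehicle ears none of these lists had a gene called between genotypes. Only 0.456% of all genes were called there, so the absence of calls in short lists does not set them apart. The medians there were 0.60 for adipocyte, 0.37 for Schwann, 0.26 for smooth muscle, 0.23 for cartilage, 0.19 for fibroblast, 0.15 for endothelial, -0.005 for cardiac and -0.18 for epidermal genes, against 0.80 for the 51. For the difference between the IMQ effects, 2 adipocyte genes were called lower (list median -0.92, with 15 of 16 below zero). So were 2 of 15 cartilage genes (list median -0.46), 2 of 14 epidermal genes (0.215) and 1 of 8 Schwann genes (-0.39). None was called lower in the smooth muscle, endothelial, cardiac and fibroblast lists. Of all genes, 0.721% were called lower by this difference. The median for the 51 was -1.25. The part of any of these tissues in the muscle differences was not tested.

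**Figure D5:**
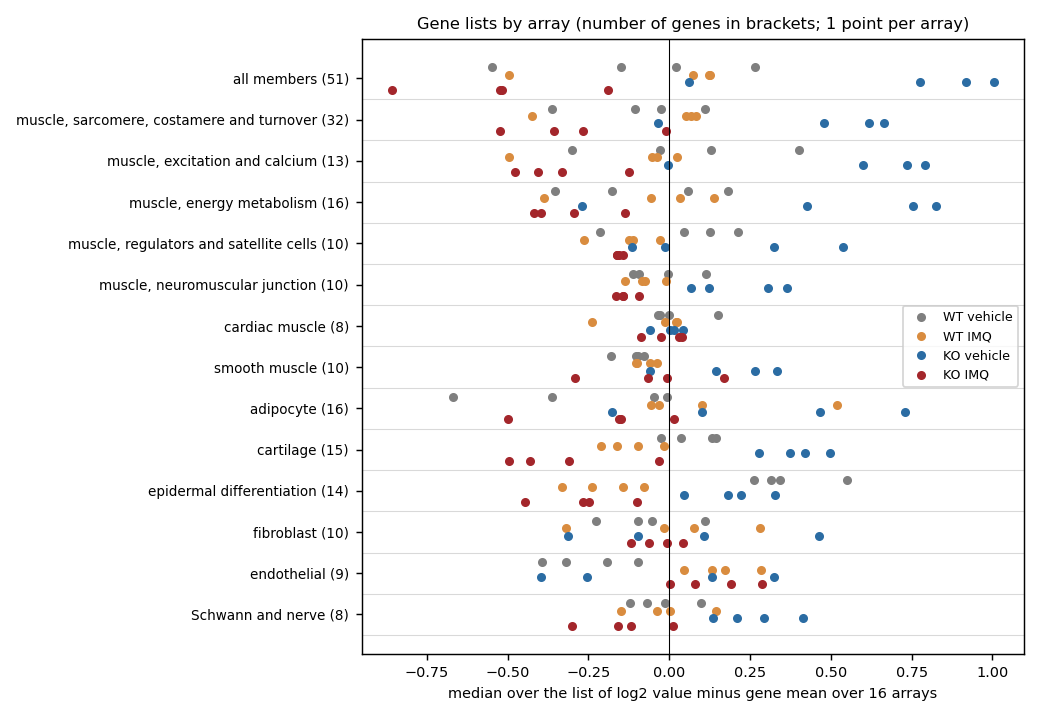
Median centred log2 value per array (points) for the 51 genes and for the lists of other muscle and other cell markers, in the 4 groups. For the 51 genes, knockout vehicle arrays 1, 2 and 4 lie at 0.78 to 1.01 and knockout IMQ arrays at -0.86 to -0.19. The 2 knockout groups also stand apart in the cartilage, Schwann and nerve, epidermal, neuromuscular junction, and excitation and calcium lists. In the list of regulators and satellite cells they do so narrowly.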

How the data were processed

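Total RNA of 16 ear samples, 4 in each of 4 groups, was measured on Affymetrix Mouse Gene ST 2.1 arrays. The authors deposited log2 expression values per transcript cluster. The submitters' processing notes name Affymetrix Expression Console, but the probe summary method and its version were not given in the sources used here, nor was a build. Of 41345 clusters 32471 had 1 gene symbol. The cluster with the highest mean over the 16 arrays stood for each of 30943 genes (909 had more than 1). Depth has no counterpart on arrays, and the number of arrays limits the precision.

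Groups came from the submitters' labels. The log2 values were modelled by the means of the 4 groups in limma 3.58.1 (R 4.3.3), with 12 residual and 6.18 prior degrees of freedom, and 5 contrasts were tested two-sided with Benjamini-Hochberg adjustment over all 30943 genes. Summaries and figures were made in Python 3.11.15 with pandas 2.3.3 and matplotlib 3.10.9. The fitting code was tested on simulated data. Muscle genes and other lists were chosen with earlier results of these data known. Array values are given for the 2 genes of each role with the largest IMQ difference in knockout ears and for the genes with the largest or smallest difference in each contrast; up to 3 genes of any other list are named, beside its defining markers. The few further genes with array values (Nexn and Actn2) were chosen after their values were seen. Promoter and microRNA sequences came from RefSeq's GRCm38.p6 tables.

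Alternatives were another scaling of the arrays, the mean of a gene's clusters, a filter on low values, other variance models, fits of only the groups compared, each array left out in turn, and array number as a block. Over all genes, arrays with the same number in different groups deviated together little. The 24 correlations of their deviations ran from -0.08 to 0.11, and 1 was over 0.1. Among the 51 genes the same numbers did recur. Array 3 was lowest in its group for 42 genes in wild-type vehicle, 48 in knockout vehicle and 32 in knockout IMQ ears. Array 2 was highest for 44, 31 and 41 genes in the same order. In wild-type IMQ ears array 1 was lowest for 44, and arrays 2 and 3 were each highest for 21.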

Additional observations from a re-analysis of the deposited data

Results flagged for a closer look

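In 24 of 204 sets of 4 arrays (51 genes in 4 groups), 1 array lay far from the other 3 by Dixon's test at its 95% critical value, where chance gives about 1 in 20. Genes on the same array are not independent of each other. Most of these came from 2 arrays. Knockout vehicle array 3 was far below the rest of its group for Actn2 (8.18), Cacna1s (5.85), Ckm (8.32), Myh1 (9.33), Myh2 (7.86), Myoz1 (5.59), Ryr1 (7.23), Tnnc2 (8.82), Tnni2 (7.10) and Xirp2 (7.45). Wild-type IMQ array 1 was far below its group for Ckmt2 (5.45), Mybpc1 (7.71), Myom1 (6.63), Myom2 (5.33), Myot (7.95), Myoz1 (4.29), Neb (8.67), Tnnc2 (8.18) and Ttn (8.91). Wild-type vehicle array 3 was low for Myh1 (8.62) and knockout IMQ array 4 for Myh8 (2.73). Arrays far above their group were wild-type vehicle array 2 for Casq2 (4.03), wild-type IMQ array 2 for Jph1 (5.17) and knockout IMQ array 2 for Mylk2 (5.35).

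The effect of IMQ differed between the genotypes for 23 of the 51 genes by limma's test of the difference (adjusted p under 0.05). The log2 effect in knockout ears minus that in wild-type ears was negative for each of them. Among thick filament genes it was -2.02 for Myh4, -1.63 for Mybpc2, -1.58 for Mylpf, -1.45 for Myh1 and -1.43 for Myh3. Among thin filament genes it was -1.50 for Tnnt3, -1.48 for Tnni2, -1.33 for Tmod4 and -1.05 for Tnnc1. At the Z-disc and M-band it was -2.28 for Tcap, -1.81 for Myoz1, -1.76 for Myom1, -1.25 for Myom2 and -0.98 for Nexn. Among calcium genes it was -1.70 for Pvalb, -1.70 for Cacna1s, -1.66 for Trdn, -1.64 for Ryr1, -1.54 for Casq1 and -1.44 for Atp2a1. Among energy genes it was -1.69 for Pygm and -1.69 for Ckm. Outside these roles it was -1.70 for Smtnl1.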

How the results depend on the processing

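No muscle gene called in the report changed direction under any alternative: of 1901 recomputed values for single genes, 1678 kept direction and side of the threshold, 223 no longer passed and 0 reversed. The count of muscle genes called higher in knockout vehicle ears (6) moved in several settings. It was 13 when only genes that exceeded the median of 4 or more arrays were tested, a filter that kept 16400 genes and 50 of the 51, 10 with trended and robust variances, 10 with array weights, 10 without knockout vehicle arrays 3 and 4, and 0 when only the groups compared were fitted. All genes called in that comparison (141) numbered 357, 343, 237 and 15 with the filter, the trended variances, the weights and only the groups compared. Between genotypes in IMQ ears, 37 genes were called over the whole array, 85 with trended variances and 11 with only the groups compared. For the difference between the IMQ effects, 387 became 723 with the filter and 652 with trended variances. The cause of these shifts was not tested.

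With array number as a block, 20 muscle genes and 240 of all genes were called between genotypes in vehicle ears, and 1 muscle gene (Myh4) in IMQ ears. The labels do not say whether arrays with the same number were paired. Over all genes such arrays deviated together little, with correlations from -0.08 to 0.11. Among the muscle genes, array 3 was most often lowest and array 2 most often highest in every group except wild-type IMQ ears. The correlations over all genes cannot settle pairing for so small a set. Whether same-numbered arrays share a factor in the muscle genes was not tested, so these counts describe another fit only.

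Leaving out 1 array at a time gave 1 to 1 muscle genes called for IMQ in wild-type ears, 41 to 49 for IMQ in knockout ears, 0 to 31 between genotypes in vehicle ears, 0 to 0 in IMQ ears and 8 to 36 for the difference between effects. Over all genes these ranges were 769 to 1210, 3623 to 4567, 37 to 474, 7 to 80 and 149 to 824. The median over the 51 genes ran from -0.11 to 0.23, -1.43 to -1.08, 0.65 to 1.05, -0.65 to -0.40 and -1.48 to -1.08. Genes near the array medians, such as Myh8, Myh7 and Cacng1, are limited by signal over background.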

Other observations

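Csrp3 and Ankrd2, a pair of muscle genes known to respond to stretch, were looked at after their values were seen. Neither passed for IMQ in knockout ears: Csrp3 differed by -0.12 (limma adjusted p = 0.802) and Ankrd2 by 0.60 (limma adjusted p = 0.217). In wild-type ears Ankrd2 differed by 0.95 (limma adjusted p = 0.0916).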
